A study of Sus scrofa with 25 samples.

Results

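The genes described here carry the symbols that begin with NDUF, the nuclear genes for subunits and assembly factors of respiratory complex I, in muscle of growing pigs. A gene was included when its Ensembl pig symbol starts with NDUF and reads were counted for it in at least 13 of the 25 libraries. Of 25879 gene identifiers analysed, 37 carried such a symbol and 36 met the rule. The gene left out was the assembly factor NDUFAF7, with a count in 3 libraries. Of the 36 genes, 32 had a count in every library. NDUFA1, NDUFA7, NDUFA13, NDUFC1 and NDUFAF2 had no count row among these identifiers and were not analysed here. The roles used below are therefore not complete sets. Counts were found under the symbols of 6 of 7 listed core subunits and 10 of 11 distal membrane arm subunits. For accessory subunits of the peripheral arm and the proximal membrane arm it was 6 of 9 and 5 of 9. The rule also takes in NDUFA4, which is now placed in complex IV, and its relative NDUFA4L2, and these members are not complex I subunits.

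The 25 pigs came from Polish Large White sows mated to Landrace boars, and 1 library was made per pig from muscle tissue. Feeds of equal protein and energy were given for 90 days from day 85 of life and held vitamin D3 at 0 IU/kg (control, 8 pigs), 5000 IU/kg (D5000, 8 pigs) or 10000 IU/kg (D10000, 9 pigs). Pigs of each litter were spread over the diets at random, but no source used here gives a pig's litter, its sex or which muscle was sampled. The libraries read the 3' ends of mRNA, so a count does not grow with transcript length, and levels are given as CPM, counts scaled to the total gene count of the library.

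Complex I, the NADH:ubiquinone oxidoreductase of the inner mitochondrial membrane, takes electrons from NADH, passes them to ubiquinone and pumps protons. Its peripheral arm stands in the matrix and carries the flavin and the iron-sulfur clusters, while its membrane arm holds the proton channels, whose core proteins are encoded by mitochondrial DNA. The nuclear genes supply the core of the peripheral arm, a shell of accessory subunits around both arms, and assembly factors that help to build the enzyme and do not stay in it. Oxidative muscle fibres are rich in mitochondria and in this enzyme.

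Gene counts per library ran from 3310507 to 15177976. The share of reads assigned to genes ran from 24.9% in D5000 replicate 18 and 28.4% in D10000 replicate 2 up to 70.6% in a control, and 6 libraries lay below 50%. The skeletal actin gene ACTA1 held 10029 CPM in D10000 replicate 27 and from 27735 to 213895 CPM in the other libraries. That library also held 12828 CPM of adipocyte markers against 67.8 to 392 elsewhere, 1234 CPM of the adipocyte hormone gene ADIPOQ against at most 52.9 elsewhere, and the lowest sum of slow fibre markers at 621 CPM. Liver transcripts were present in every library, with sums of 2033 to 27899 CPM. Fewer cells of a type and less RNA per cell cannot be told apart in such samples, here and in all that follows.

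Together the 36 genes made up 3534 ± 733 CPM (SD, n = 25), from 2282 CPM in D10000 replicate 2 to 5444 CPM in control replicate 16. The complex I genes of mitochondrial DNA, ND1 to ND6 with ND4L, summed to far more, 22429 to 69737 CPM. NDUFS8 (ENSSSCG00000037455), a core subunit that binds iron-sulfur clusters on the way to the quinone site, had the highest mean among the members, 256 ± 121 CPM (SD, n = 25). It was the highest member in 9 libraries and NDUFB9 in 6, and the other libraries were led by NDUFA6, NDUFB11, NDUFC2, NDUFB1, NDUFS3 or NDUFV2. The next means were 243 ± 89.1 CPM for NDUFB9 and 221 ± 77.5 CPM for NDUFB11, closer to NDUFS8 than the SD over the pigs. The lowest mean was that of NDUFA4L2 (ENSSSCG00000027621), 1.33 ± 1.35 CPM, with reads in 19 libraries. The median of the 36 means was 97.9 CPM. Reads outside genes (16.3% to 38.1% of a library) and those aligned to several places (12.5% to 38.7%) are not in these levels. Their part in the ranking of genes was not tested.

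**Figure D1:**
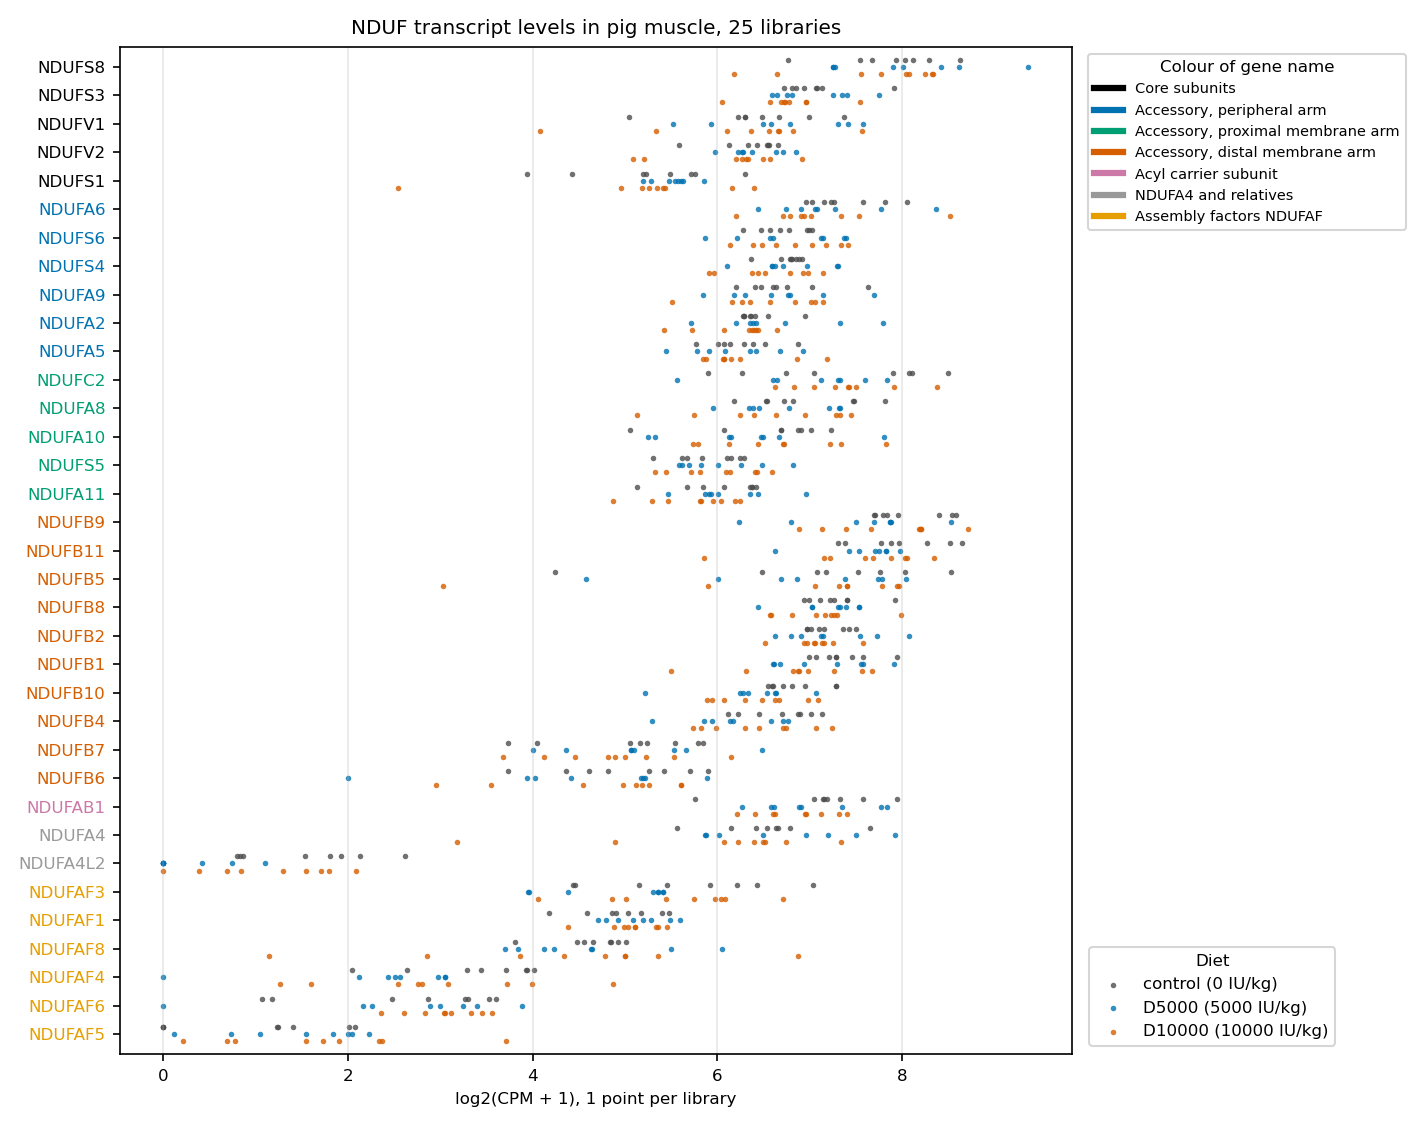
Level of 35 NDUF genes as log2(CPM + 1), 1 point per library, with colour of the point for the diet and of the gene name for its role. Subunit genes lie mostly between 5 and 8.5 on this axis, and assembly factors reach lower but overlap the lowest subunits. The clouds of the 3 diets overlap for each gene shown.

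Among the core subunits, NDUFV1 (ENSSSCG00000012896), which binds the flavin and takes the electrons from NADH, had lowest, median and highest CPM of 32.03, 83.3 and 165 in control, 44.8, 102 and 191 in D5000 and 15.9, 93.5 and 189 in D10000. Its partner at the NADH end, NDUFV2 (ENSSSCG00000038826), had 47.1, 88.7 and 99.7 CPM in control, 62.0, 79.6 and 115 CPM in D5000 and 33.1, 78.5 and 119.9 CPM in D10000. NDUFS1 (ENSSSCG00000016127), the large iron-sulfur subunit, had 14.3, 40.1 and 77.9 CPM in control, 35.8, 46.1 and 57.1 CPM in D5000 and 4.82, 39.9 and 83.5 CPM in D10000. The 3 diets overlapped for each of these genes, and the low value of NDUFS1 was that of D10000 replicate 27.

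NDUFS3 (ENSSSCG00000032081), a core subunit towards the foot of the peripheral arm, had lowest, median and highest CPM of 105, 128 and 241 in control, 96.0, 131 and 214 CPM in D5000 and 65.5, 106 and 186 CPM in D10000. NDUFS8 had 108, 253 and 395 CPM in control, 152, 248 and 661 CPM in D5000 and 71.5, 263 and 322 CPM in D10000. The diets overlapped for both genes, and the highest NDUFS8 value was that of D5000 replicate 24.

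Accessory subunits were measured at levels like those of the core. The 6 members of the peripheral arm had means from 78.0 CPM (NDUFA5) to 161 CPM (NDUFA6), the 5 of the proximal membrane arm from 64.2 CPM (NDUFA11) to 169 CPM (NDUFC2), and the 10 of the distal membrane arm from 30.5 CPM (NDUFB6) to 243 CPM (NDUFB9). NDUFAB1, the mitochondrial acyl carrier protein that also serves as a subunit, had a mean of 135 CPM. The 6 assembly factors ran from 2.22 CPM (NDUFAF5) to 47.5 CPM (NDUFAF3), with a lower median of 18.1 CPM. They overlapped the lowest subunits, as NDUFAF3 lay above NDUFS1 (43.3 CPM), NDUFB7 (35.7 CPM) and NDUFB6 (30.5 CPM). NDUFA4 had a mean of 98.9 CPM, but RefSeq lists 2 pig genes under that symbol, so its reads may be split between copies and its values are uncertain.

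Levels varied between pigs less for some members than for others. For the 32 genes with a count in every library, the SD of log2 CPM over the 25 libraries had a median of 0.55, and it was 0.70 for the 2914 genes of the same range of mean CPM. With the median of the members in each library taken away, the median SD was 0.51. The steadiest member was then NDUFB8, a distal membrane arm subunit, at 0.22, and the most variable NDUFB5, of the same arm, at 1.24. NDUFB5 fell to 7.16 CPM in D10000 replicate 27 and reached 371 CPM in control replicate 16.

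The feeds were compared to ask whether the dose of vitamin D3 moved transcript levels. No NDUF gene passed an adjusted p of 0.05 in any of the 3 contrasts or in the joint test over the diets, fitted with edgeR's quasi-likelihood test on 10992 genes, all 36 members among them. The same held for all genes tested, of which 0% were called in each contrast. In simulated data, D10000 against control recovered 8.2% of genes changed by 1 on the log2 scale, so most changes of that size would be missed. The smallest adjusted p among the members was 0.999 in D5000 against control and in D10000 against D5000, and 1.00 in D10000 against control. The median SE of a member's log2 fold change was 0.34, 0.33 and 0.33 in D5000 against control, D10000 against control and D10000 against D5000. Both doses were set against the same 8 controls, so their fold changes are not independent. DESeq2 and limma voom called 0 genes as well. At an unadjusted p of 0.05 they placed 2, 0 and 2 members (DESeq2) and 3, 0 and 2 members (limma voom) past the line in these contrasts, and edgeR 2, 0 and 2.

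At an unadjusted p of 0.05, 2 members lay past the line in D5000 against control, where 3.38% of all genes did. NDUFA4L2, the NDUFA4 relative known for its rise in low oxygen, had lowest, median and highest CPM of 0.73, 2.2 and 5.15 in control, 0, 0 and 1.15 in D5000 and 0, 1.45 and 3.26 in D10000. It was at 0 in 5 of the 8 D5000 libraries, which allows up to 0.26 to 0.69 CPM in them (3 counts of the library total), in 1 of the 9 D10000 libraries and in no control. All 8 D5000 values lay below the control mean of 2.25 CPM, but the groups overlapped. Its log2 fold change was -2.65 ± 0.94 (SE) in D5000 and -0.67 ± 0.87 in D10000, with unadjusted p of 0.00932 and 0.441 and adjusted p of 0.999 and 1.00 (edgeR).

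NDUFAF3 (ENSSSCG00000011371), an assembly factor of the early quinone module, had 20.6, 51.4 and 131 CPM in control, 14.4, 39.3 and 41.6 CPM in D5000 and 15.7, 52.7 and 104 CPM in D10000. The D5000 values were all below the control mean of 58.5 CPM and within the span of the controls. Its log2 fold change in D5000 was -0.95 ± 0.37 (SE), with an unadjusted p of 0.0163 and an adjusted p of 0.999 (edgeR). NDUFAF4 (ENSSSCG00000004342), which works with NDUFAF3, was next at -1.01 ± 0.57. It had 3.12, 11.0 and 15.1 CPM in control, 0, 4.80 and 7.29 CPM in D5000 and 1.41, 6.00 and 28.3 CPM in D10000.

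**Figure D2:**
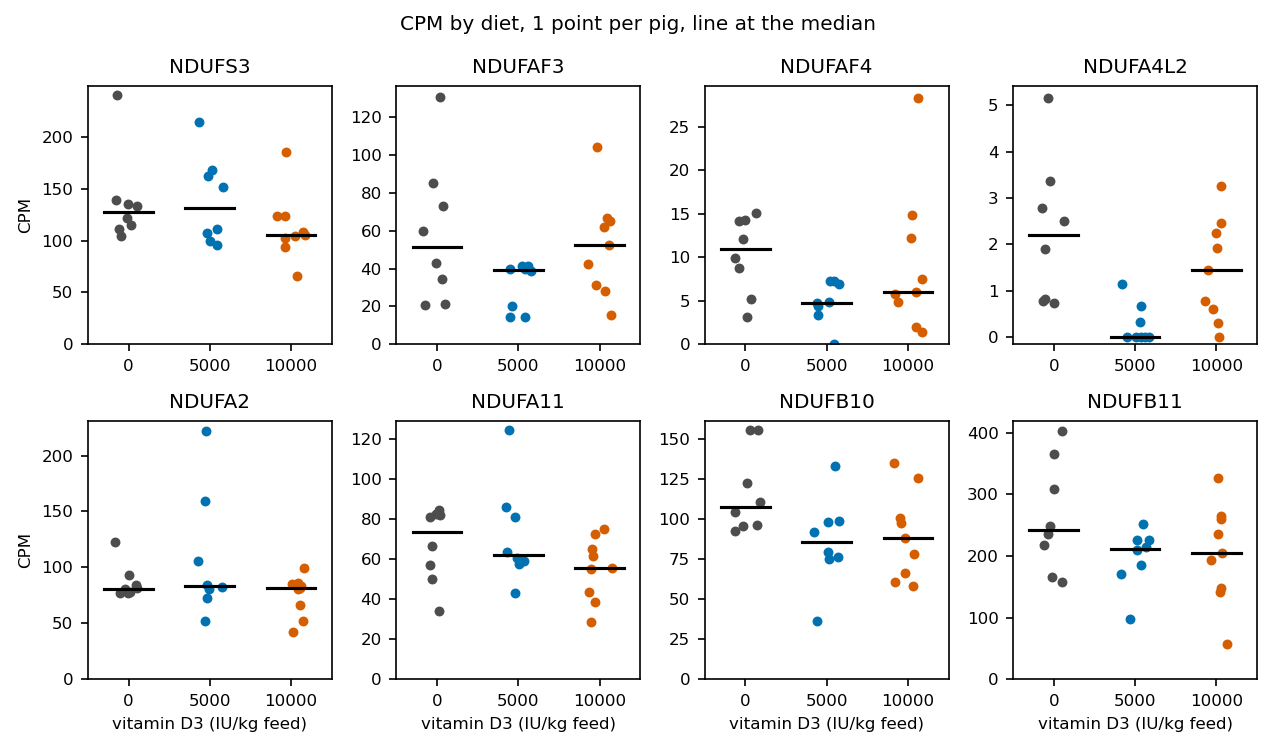
CPM of 8 NDUF genes by dose of vitamin D3 in the feed, 1 point per pig and a line at the median of each diet; these are genes among those with the smallest unadjusted p in the diet contrasts. NDUFA4L2 sits at 0 in 5 of 8 D5000 pigs, and in every panel the diets overlap.

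In D10000 against control, 4 members had a log2 fold change above 0 and 32 below, with a median of -0.31, while 57.2% of all genes lay above 0, with a median of 0.07. No member reached an unadjusted p of 0.05, where 2.39% of all genes did. The smallest p belonged to NDUFS3 at -0.48 ± 0.27 (SE), NDUFB10 at -0.53 ± 0.29, NDUFB11 at -0.56 ± 0.33 and NDUFA11 at -0.44 ± 0.26. Without control replicate 16 the NDUFS3 value was -0.29. NDUFB10 (ENSSSCG00000030328), of the distal membrane arm, had 92.8, 108 and 156 CPM in control, 36.3, 85.7 and 133 CPM in D5000 and 58.2, 88.6 and 135 CPM in D10000. NDUFB11 (ENSSSCG00000034487), of the same arm, had 158, 242 and 402 CPM in control, 97.5, 211 and 252 CPM in D5000 and 57.1, 205 and 326 CPM in D10000. NDUFA11 (ENSSSCG00000027307), of the proximal membrane arm, had 34.1, 73.5 and 84.5 CPM in control, 43.2, 61.9 and 124 CPM in D5000 and 28.4, 55.6 and 75.1 CPM in D10000. For all 3 genes, which were picked by their p in this contrast, the median was highest in control, and each diet overlapped the others.

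The fold changes in D10000 lay below 0 for all 6 core subunits (median -0.33), all 6 of the peripheral arm (median -0.31), 4 of 5 of the proximal arm (median -0.25) and all 10 of the distal arm (median -0.35). The 6 assembly factors had a median of -0.02, with 3 above 0. The other parts of the respiratory chain had medians of -0.38 for the 7 mitochondrial complex I genes, -0.24 for 4 genes of complex II, -0.34 for 7 of complex III, -0.29 for 10 of complex IV and -0.25 for 9 of complex V, with 0 genes called in each list. Muscle fibre markers lay lower too, with medians of -0.34 for 5 general, -0.58 for 6 slow and -0.73 for 9 fast fibre genes. D10000 replicate 27 held 1894 CPM of the fast fibre markers, against 25314 to 46068 CPM in the others of its diet and 20286 to 63813 CPM in control. Fibroblast markers had a median of 0.59, with 5 of 6 genes above 0. Their summed level was 6865 CPM in D10000 replicate 27, against 720 to 2871 CPM in the others of its diet and 711 to 1950 CPM in control. Adipocyte markers had a median of 3.20 over 7 of 7 genes above 0, and their summed level ran from 139 to 392 CPM in control and from 131 to 12828 CPM in D10000, where replicate 27 was the only library above 263 CPM. The part of fibre, fibroblast and fat content in the NDUF values was not tested.

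The D10000 median varied in size with the libraries and the scaling, and was below 0 in each setting that follows. It was -0.20 without D10000 replicate 2, -0.21 without control replicate 16 and -0.28 without D10000 replicate 27. Among libraries with at least 50% of reads assigned it was -0.16. With libraries scaled by total counts it was -0.16, with 9 members above 0, while the median of all genes was 0.24. With the assigned share as a covariate it was -0.14, with 10 members above 0.

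In D5000 against control 12 members lay above 0 and 24 below, with a median of -0.06, and 51.0% of all genes lay above 0. Core subunits had a median of 0.12 and distal arm subunits of -0.34, a difference that was not tested. The median of the members was -0.18 without D5000 replicate 6 and -0.0040 without control replicate 16. The split of the members was even, 18 above and 18 below 0, with total count scaling. With the assigned share as a covariate the median turned to 0.11, with 24 members above 0.

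Between the doses, 11 members were higher and 25 lower in D10000 than in D5000, with a median of -0.15, and 54.6% of all genes lay above 0. The median was -0.06 without D10000 replicate 2, -0.07 without D10000 replicate 7 and -0.08 without D5000 replicate 6. Total count scaling gave 16 higher and 20 lower. NDUFA4L2 was at 1.98 ± 0.92 (SE), with an unadjusted p of 0.0397 and an adjusted p of 0.999 (edgeR), and 2.94% of all genes stood past an unadjusted p of 0.05. Without D5000 replicate 25 its fold change was 3.12 on the log2 scale. NDUFA2 (ENSSSCG00000014371), a peripheral arm subunit, followed at -0.63 ± 0.31, with 76.8, 80.9 and 123 CPM in control, 51.7, 83.6 and 222 CPM in D5000 and 42.1, 81.9 and 99.0 CPM in D10000. The highest NDUFA2 value was that of D5000 replicate 6, and without this library the fold change was -0.36. In the joint test over the 3 diets NDUFA4L2 had an unadjusted p of 0.0320 and an adjusted p of 1.00 (edgeR), and 2.66% of all genes had an unadjusted p under 0.05.

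**Figure D3:**
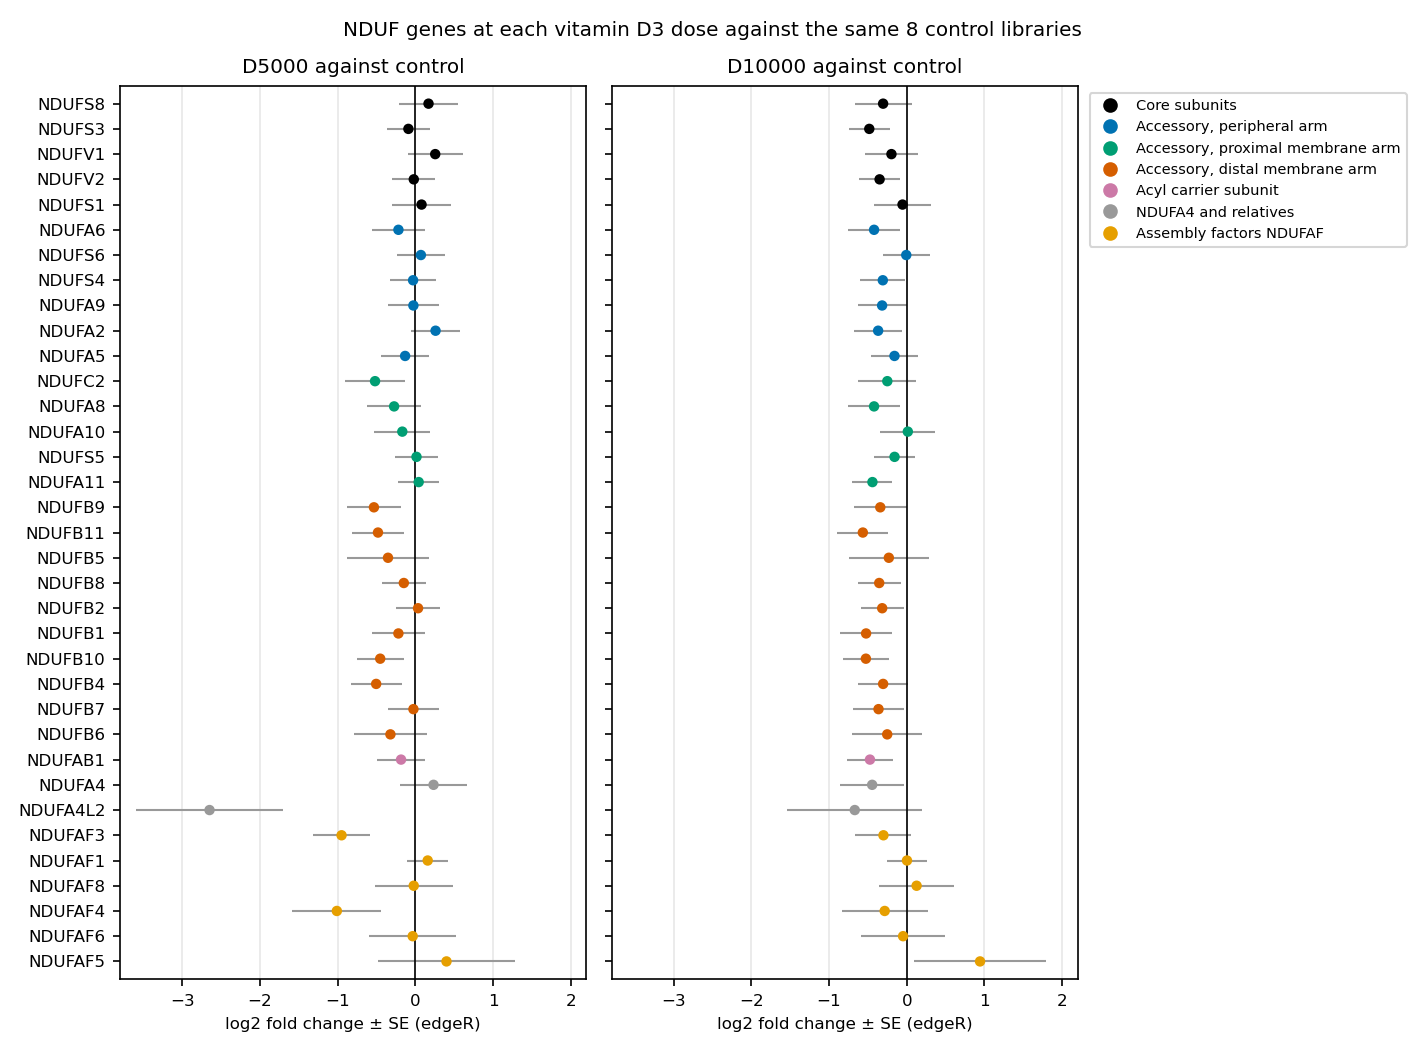
Log2 fold change ± SE (edgeR) of 35 NDUF genes in D5000 and in D10000 against the same 8 control libraries, coloured by role. Most points lie below 0, more so in D10000, and NDUFA4L2 is furthest out at -2.65 in D5000; none passed the adjusted threshold.

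NDUF levels were then set against the share of reads assigned to genes, a measure of the library, with diet kept in the model. The share was 58.4% ± 8.76 (SD, n = 8) in control, 51.8% ± 12.6 (n = 8) in D5000 and 53.5% ± 13.1 (n = 9) in D10000. The differences from control were -6.55 and -4.84 percentage points, and D10000 exceeded D5000 by 1.71 points. The exact two-sided permutation tests gave p of 0.259, 0.396 and 0.785, and 0.593, 0.593 and 0.785 after Benjamini-Hochberg adjustment over the 3 pairs. Without D5000 replicate 18 the last difference was -2.14 points. No difference in the share passed the threshold in these tests, which had 8 or 9 pigs per diet.

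Across the libraries, 25 of the 36 NDUF genes were higher where more reads were assigned, and 0 were lower, at an adjusted p of 0.05 (edgeR). Of all genes tested 28.8% were called, 13.9% higher and 14.9% lower. At an unadjusted p of 0.05, 27 members stood past the line, all of them higher, against 39.4% of all genes in either direction. The slope is the log2 change for each 10 percentage points more of assigned reads. It was above 0 for 34 members, against 53.4% of all genes, and had a median of 0.40 over the 36, against a median of 0.03 and quartiles of -0.24 and 0.28 over all genes. NDUFB7 and NDUFAF5 had slopes below 0.

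The number of calls differed with the scaling and with the libraries kept, and the cause was not tested. With libraries scaled by total counts alone, 7 members were called, all higher, against 2.3% of all genes called higher, and the median slope was 0.18 over the members and -0.22 over all genes. The 7 were NDUFB4, NDUFB6, NDUFB9, NDUFB10, NDUFB11, NDUFC2 and NDUFAF4, and 29 members kept a slope above 0. Without D5000 replicate 18 and D10000 replicate 2, the libraries of lowest share, 15 members were called, all 36 slopes were above 0 and their median was 0.40. Among the 19 libraries with at least 50% of reads assigned, 0 members and 0 of 11090 genes were called, and 31 members had slopes above 0, with a median of 0.37. At an unadjusted p of 0.05, 8 members and 1754 genes were past the line in these libraries (edgeR).

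Within each diet by itself the median slope was 0.47 over 33 members tested in control, 0.33 over 32 in D5000 and 0.37 over 34 in D10000. The slope lay above 0 for 31, 30 and 33 of them, and 3, 3 and 2 members were called, against 1.35%, 3.24% and 1.5% of all genes called higher. An interaction of share and diet passed the threshold for 0 of 36 members and 0 of 10992 genes (edgeR), with 0 members and 378 genes at an unadjusted p under 0.05.

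**Figure D4:**
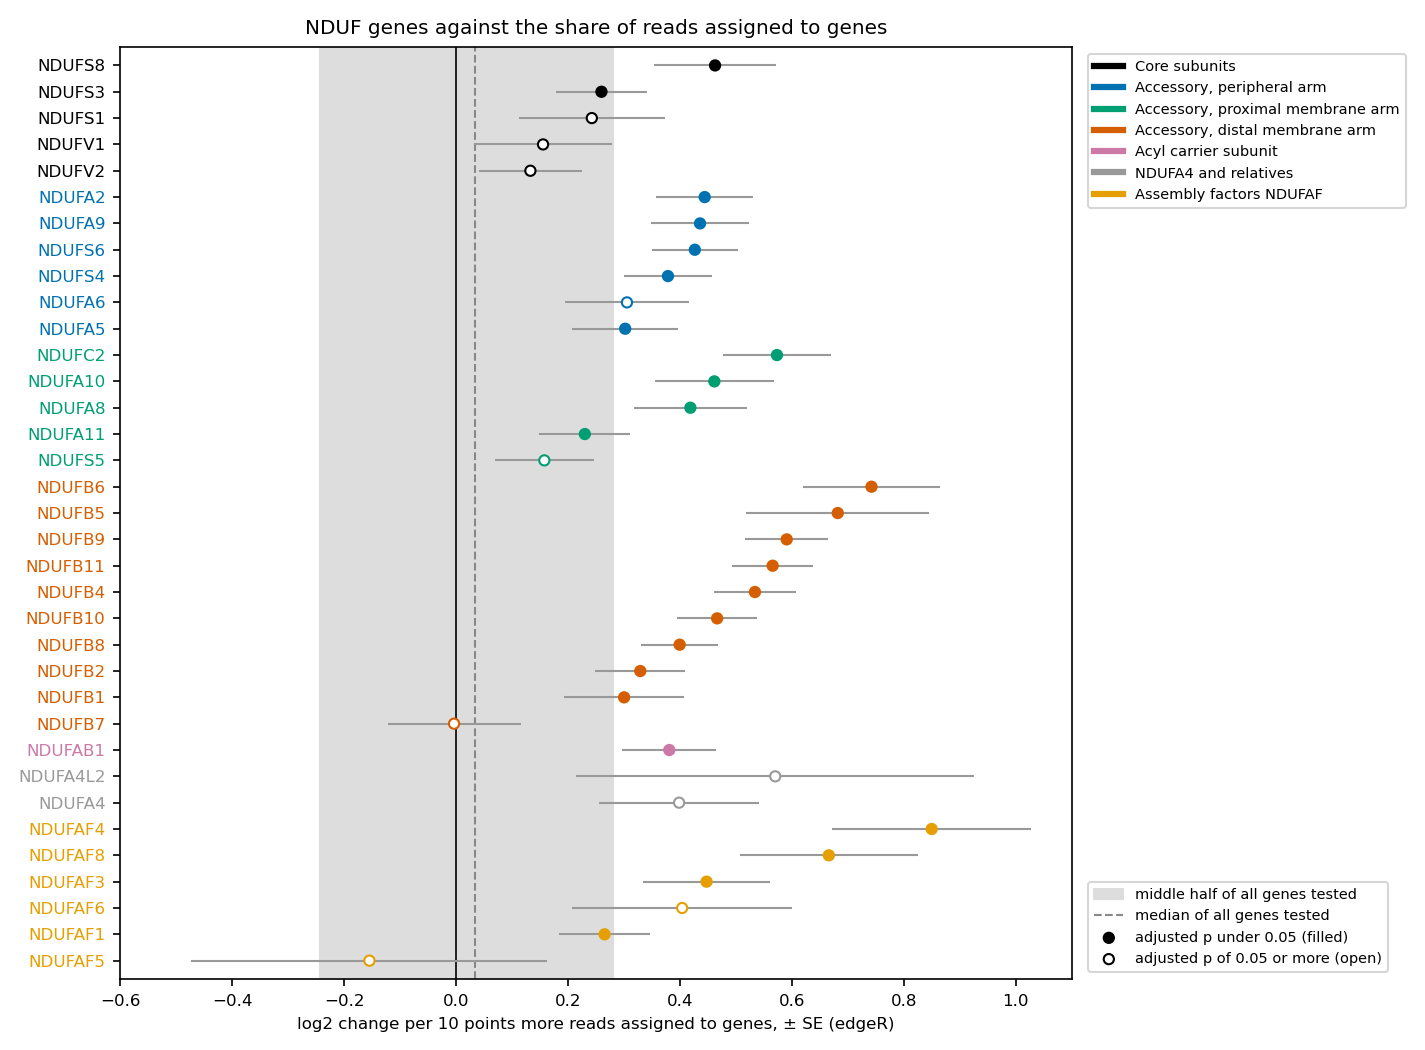
Slope ± SE (edgeR) of 35 NDUF genes on the share of reads assigned to genes, as log2 change per 10 percentage points, grouped by role; filled points passed an adjusted p of 0.05, the grey band holds the middle of all genes from -0.24 to 0.28, and the dashed line is their median of 0.03. The 25 filled points all lie to the right of 0, 9 of them distal membrane arm subunits.

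The smallest p values were those of distal membrane arm subunits, the accessory shell around the far proton channels. NDUFB9 (ENSSSCG00000005976) had lowest, median and highest CPM of 74.2, 153 and 235 in the 6 libraries under 50% assigned and 111, 247 and 419 in the other 19. Its slope was 0.59 ± 0.075 (SE), with an adjusted p of 7.52e-06 (edgeR). NDUFB11 had 57.1, 176 and 226 CPM in the libraries under 50% and 141, 235 and 402 CPM in the others, and a slope of 0.57 ± 0.073 with an adjusted p of 9.85e-06 (edgeR). The lowest library was D5000 replicate 18 for NDUFB9 and D10000 replicate 2 for NDUFB11, and the ranges overlapped.

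NDUFB4 (ENSSSCG00000031913) had 38.3, 66.8 and 77.8 CPM under 50% assigned and 52.2, 104 and 151 CPM from 50% on, and a slope of 0.53 ± 0.073 with an adjusted p of 1.05e-05 (edgeR). NDUFB10 had 36.3, 63.6 and 111 CPM against 75.02, 98.1 and 156 CPM, and a slope of 0.47 ± 0.071 with an adjusted p of 4.89e-05 (edgeR). NDUFB6 (ENSSSCG00000011003) had 3.00, 16.9 and 33.8 CPM against 6.77, 35.6 and 58.6 CPM, and a slope of 0.74 ± 0.12 with an adjusted p of 9.40e-05 (edgeR). All 3 had their median in the libraries of higher share above that in the others, and again the ranges overlapped. These genes were picked by their slope over the same libraries, so this split adds no separate evidence.

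By role, 9 of 10 distal arm subunits were called, with a median slope of 0.50, and 4 of 5 in the proximal arm, with a median of 0.42. In the peripheral arm 5 of 6 accessory subunits were called, with a median of 0.40, and NDUFAB1 was called at 0.38 ± 0.084 (SE). Of the core subunits 2 of 6 were called, NDUFS8 at 0.46 ± 0.11 and NDUFS3 at 0.26 ± 0.081, and the median was 0.20. The slopes of NDUFS1, NDUFV1 and NDUFV2 were 0.24, 0.16 and 0.13, with adjusted p of 0.171, 0.419 and 0.273 (edgeR). Differences between the roles were not tested, and 13.9% of all genes were called higher.

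Of the assembly factors 4 of 6 were called: NDUFAF4, with the largest slope among the members at 0.85 ± 0.18 (SE), NDUFAF8 at 0.67 ± 0.16, NDUFAF3 at 0.45 ± 0.11 and NDUFAF1 at 0.27 ± 0.081. NDUFAF6 at 0.40 ± 0.20 and NDUFAF5 at -0.15 ± 0.32 were not called. NDUFA4 had a slope of 0.40 ± 0.14 and an adjusted p of 0.0550 (edgeR), and NDUFA4L2 had 0.57 ± 0.36. NDUFB7 was the distal arm subunit that was not called, at -0.0033 ± 0.12.

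**Figure D5:**
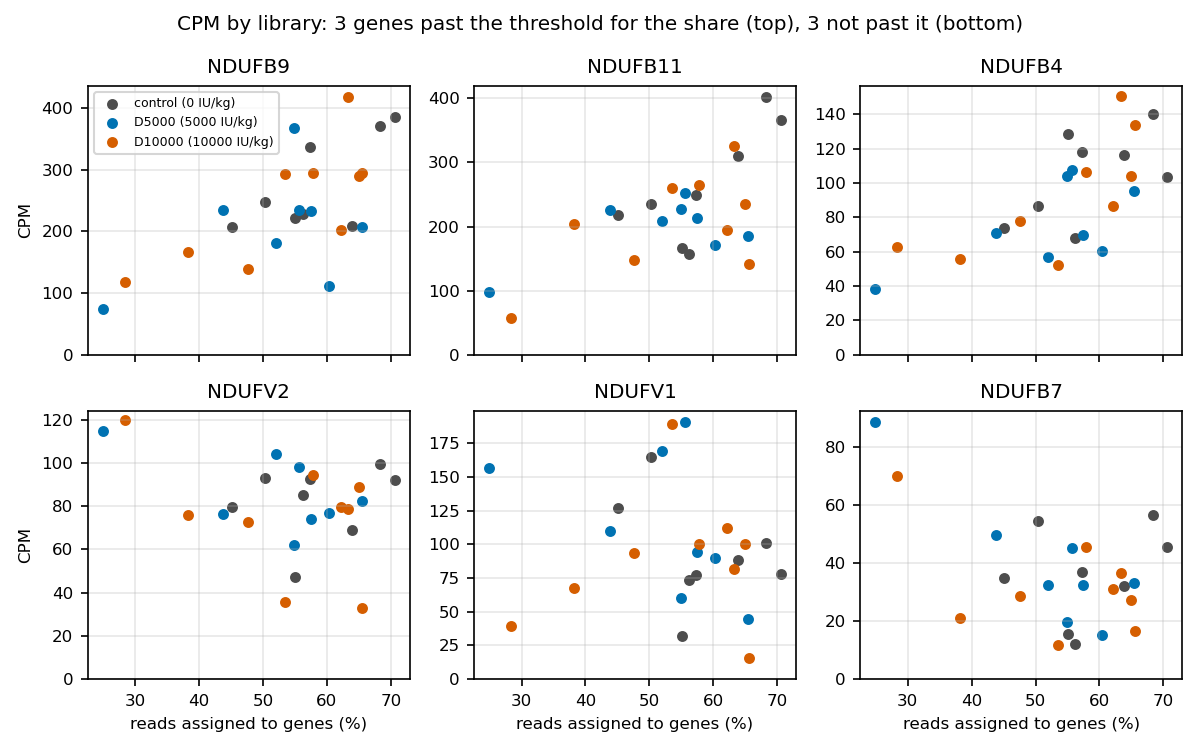
CPM of 6 NDUF genes, 1 point per library, against the percentage of reads assigned to genes, coloured by diet. NDUFB9, NDUFB11 and NDUFB4 (top) passed the threshold for the share, with the lowest point at 24.9% assigned for NDUFB9 and NDUFB4 and at 28.4% for NDUFB11, while NDUFV2, NDUFV1 and NDUFB7 (bottom) did not pass it.

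The other genes of the respiratory chain were read in the same fit, from lists by complex. In that fit 13.9% of all genes were called higher with the share and 14.9% lower. Of the nuclear complex IV genes 8 of 10 were called higher with the share (median 0.52), with COX5A at 0.68 ± 0.080 (SE). Complex III had 5 of 7 (median 0.33), complex V 5 of 9 (median 0.34), complex II 2 of 4 (median 0.28) and the mitochondrial complex I genes 4 of 7 (median 0.28), with ND4 at 0.35 ± 0.097. Of the complex I assembly factors without an NDUF symbol, 1 of 9 was called, DMAC2 at 0.29 ± 0.10, and their median was 0.10.

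Marker genes of cell types were also read in the same fit, where 13.9% of all genes were called higher and 14.9% lower. Higher with the share were 3 of 5 general muscle genes (median 0.60), 4 of 6 slow fibre genes (median 0.57) and 3 of 9 fast fibre genes (median 0.33). Lower with the share were 5 of 6 liver genes (median -0.51), with ALB at -0.57 ± 0.11 (SE), 3 of 4 immune genes (median -0.43), with PTPRC at -0.44 ± 0.076, and 1 of 3 blood cell genes. The liver markers summed to 14510 to 27899 CPM in the 6 libraries under 50% assigned and to 2033 to 13337 CPM in the others, and the immune markers to 143 to 494 CPM and 53.3 to 245 CPM. No adipocyte (7), fibroblast (6), endothelial (4) or lung (2) gene was called. Gene counts per library also differed, with a median of 5287280 under 50% assigned and 8970020 from 50% on. The part of these cell types and of depth in the NDUF slopes was not tested.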

How the data were processed

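Muscle RNA of 25 pigs was measured with the Lexogen QuantSeq FWD 3' kit, per the labels. The authors deposited raw counts, as whole read numbers for each Ensembl gene of the pig, in 1 file per pig. FastQC is named in the submitters' processing notes, without a version, and the aligner, counting program, genome build and annotation are not given in the sources used here. From each file, 5 summary lines were kept apart from library sizes and from the tests. They held 16.3% to 38.1% of reads outside genes and 12.5% to 38.7% aligned to several places. A gene identifier that was missing from 1 file was left out. Symbols came from an Ensembl table and matched 14856 of 25879 identifiers.

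CPM values are counts scaled to the total gene count of a library. Tests used edgeR 4.0.16 in R 4.3.3: filterByExpr (minimum count 10, minimum total 15), TMM scaling, glmQLFit and glmQLFTest (robust), on 10992 genes in all 25 libraries, with diet as the term, or with diet and the share of assigned reads. Adjustment was by Benjamini-Hochberg over all genes, with a threshold of 0.05. CPM values are not TMM scaled, but fold changes and slopes are, with a prior count of 0.125. The SE follows from the fitted weights and the moderated dispersion. The fits were tested on simulated data. For D10000 against control they recovered 8.2% of 97 genes changed by 1 on the log2 scale. Of 96 genes changed by 2 they recovered 64.6%, and there were 0 false calls. For the share slope, genes were given a smaller or a larger change over a span of the share. Of these the fits recovered 24.2% of 95 and 69.8% of 96 genes, with 1 false call among 91 calls. Alternatives used DESeq2 1.42.0, limma 3.58.1 and other scalings, filters and sets of libraries.

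Members and lists were chosen with earlier results of these data known. Values were given for the core subunits, the 4 members of smallest p in each contrast and in the share slope, and the highest and the lowest member by mean CPM. Full statistics were given for the 5 of smallest p, and up to 3 genes of any other list could be named. Of the members, 1 is counted but not otherwise reported here, and none replaced it. Separate pigs are the replicates. Counting floors cover counting error only, since no molecular identifiers are named. Promoter and protein sequences were not used here.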

Additional observations from a re-analysis of the deposited data

Results flagged for a closer look

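In each diet, the highest or lowest library of a gene was set against the gap to its nearest neighbour (Dixon's criterion at 95%). Of 108 sets of gene and diet 16 were past the limit, of which 15 are given here. Chance alone gives about 1 in 20 for normally distributed values. The criterion was applied to CPM without logs, so no excess over chance can be read from these numbers. The 36 genes share libraries, so the sets are not independent.

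Control replicate 16, the library with the highest NDUF sum, was past this limit as the highest control for 5 genes. It held 197.2 CPM of NDUFA9 (next 129.5), 241.5 CPM of NDUFB8 (next 169.1), 122.9 CPM of NDUFA2 (next 92.91), 201.0 CPM of NDUFA4 (next 109.5) and 240.6 CPM of NDUFS3 (next 139.6). Control replicate 23 was the lowest control for NDUFS4, an accessory subunit of the peripheral arm, with 81.21 CPM (next 102.1).

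D10000 replicate 27, the library rich in adipocyte markers, was past the limit as the highest of its diet for 4 genes. It held 367.3 CPM of NDUFA6 (next 184), 254.1 CPM of NDUFB8 (next 156.4), 185.7 CPM of NDUFS3 (next 124.2) and 116.7 CPM of NDUFAF8 (next 40.06). The same library had the lowest value of all libraries for NDUFB5 (7.16 CPM), NDUFA4 (8.09 CPM) and NDUFS1 (4.82 CPM). It was also lowest for NDUFB1, NDUFA8, NDUFB7 and NDUFS4, and none of these low values was past the limit. In the same diet, replicate 1 had 28.3 CPM of NDUFAF4 (next 14.9), and replicate 2, of low assigned share, had 12.08 CPM of NDUFAF5 (next 4.184).

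In D5000, replicate 18, the library of lowest assigned share, had 88.71 CPM of NDUFB7 (next 49.63), and replicate 24 had 223.9 CPM of NDUFA10 (next 101.1) and 661.4 CPM of NDUFS8 (next 392.9). Replicate 24 also held the highest sum of slow fibre markers, 18425 CPM.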

How the results depend on the processing

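In the diet contrasts 0 NDUF genes were called under each of the 33 alternatives (scaling, filter, DESeq2, limma voom, share as covariate, libraries with at least 50% assigned, each library left out). With a library left out, the median fold change ran from -0.1804 to -0.003962 in D5000, from -0.3979 to -0.2026 in D10000 and from -0.207 to -0.06448 between the doses. For the share slope, 25 genes were called, 22 to 27 with a library left out (median slope 0.3801 to 0.4208), 23 with RLE scaling, 27 with DESeq2 and 27 with limma voom, of which 25 and 24 were shared. The count was 7 with total count scaling (median slope 0.1766), 3 within control, 3 within D5000, 2 within D10000, 0 with at least 50% assigned and 15 without D5000 replicate 18 and D10000 replicate 2, an alternative chosen after seeing the data, as was the test of the interaction. The within-diet fits have 8 or 9 libraries, and the fit of at least 50% assigned has 19 and a narrower range of the share. The cause of the lower counts was not tested. The share difference between D10000 and D5000 turned to -2.142 points without D5000 replicate 18 (adjusted p = 0.7154, exact permutation test). With a library left out that difference ran from -2.142 to 4.847 points, D10000 against control from -6.736 to -1.703 and D5000 against control from -8.503 to -2.703, with adjusted p from 0.3779 to 0.9768 (exact permutation tests). No paired analysis was possible because the animal numbers are not shared between diets and the litters are not in the labels. Low counts limit NDUFA4L2, NDUFAF4, NDUFAF5 and NDUFAF6, each at 0 in at least 1 library.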
